A study of Mus musculus with 4 samples.

Results

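The genes described here carry the signal of leukaemia inhibitory factor (LIF) into mouse embryonic stem cells: the receptor subunits Lifr and Il6st, the kinase Jak1, the transcription factor Stat3, and the STAT3 targets Socs3, Pim1, Pim3, Gbx2 and Klf5. Their contacts were taken from a table of H3K27ac HiChIP, an assay that counts pairs of DNA ends ligated together in fixed nuclei and enriched with an antibody against histone H3 acetylated at lysine 27, a mark of active promoters and enhancers. A contact was included when at least 1 of its ends (an anchor, the genomic interval in which ends were counted) overlapped a transcription start site of a member in GENCODE M21. This gave 854 of the 1513030 anchor pairs of the table, each called a loop here whatever its count. They used 9 anchors over start sites of 7 of the 9 genes, among 13996 protein-coding genes with such an anchor. Klf5 and Pim1 had no anchor over any of their start sites.

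LIF binds LIFR, which pairs with gp130, the product of Il6st. The JAK kinases bound to these receptors then phosphorylate STAT3, which enters the nucleus and switches on genes that hold mouse embryonic stem cells in self-renewal. Among those targets, SOCS3 feeds back to switch the receptor complex off, PIM1 and PIM3 are serine/threonine kinases, and GBX2 and KLF5 are transcription factors that help keep the cells undifferentiated.

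The study compared embryonic stem cells of 2 inbred strains of mouse: B6 is C57BL/6J, and D2 is DBA/2J. Each strain was represented by 2 cell lines (B6 4-1, B6 5-1, D2 2-9 and D2 5-5), numbered replicate 1 and 2 in that order, and each line gave 1 library. All 4 lines grew in DMEM with 15% serum, LIF, 1 µM PD0325901, a MEK inhibitor, and 3 µM CHIR99021, a GSK3 inhibitor, so the LIF pathway was supplied with ligand in both strains and no group without LIF was compared. The labels give no embryo, passage or sex for a line. A label differs between libraries without explanation: 10cyc for D2 replicate 1, against 8cyc for the other 3.

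STAT3 binds a short palindrome written TTCNNNGAA, of which TTCCNGGAA is a narrower form contained in it. Both read the same on either strand. The wider form was found 73 times in 8 of the 9 member anchors. The narrower form was found 10 times in 5 of the 9, and only those sites are printed here, as the stricter matches to the motif of the pathway's own factor. Each window runs 5′ to 3′ on the plus strand of GRCm38, with 10 bases on each side and the motif in capitals.
Lifr, intron, chr15:7115507-7115535: tggggagagaTTCCAGGAAatgaaacaac
Lifr, intron, chr15:7126476-7126504: ccaacagttcTTCCAGGAAgacagcatgc
Il6st, upstream, chr13:112460566-112460594: acctccctaaTTCCTGGAAttcatgtccc
Stat3, intron, chr11:100934883-100934911: tgctctggtgTTCCCGGAAactagccctc
Socs3, downstream, chr11:117960496-117960524: gcatggcagcTTCCTGGAAaagagtcctt
Socs3, downstream, chr11:117961420-117961448: acagaatgagTTCCAGGAAagctggagat
Socs3, downstream, chr11:117962613-117962641: gaaattccctTTCCAGGAAgagcggaagc
Socs3, intron, chr11:117969229-117969257: cgccccccgaTTCCTGGAActgcccggcc
Gbx2, upstream, chr1:89935879-89935907: tgtgaaggccTTCCTGGAAgccgtgaaga
Gbx2, upstream, chr1:89939462-89939490: ggttttgtggTTCCAGGAAgcagaaggtc

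Socs3, the feedback inhibitor, held 4 of the 10 sites in its single anchor. The last of them lay 57 bp upstream of the nearest annotated start site of the gene, and the other 3 lay 6559 to 8676 bp beyond that start site on the far side of the gene. The Il6st site lay 3490 bp before the first start site, the Gbx2 sites 4714 and 8297 bp before it, and the Stat3 site 4643 bp after it. The Lifr sites lay 24907 and 35876 bp after its first start site, and 14038 and 3069 bp before the nearest annotated one. Over the 174.7 kb of member anchors, TTCCNGGAA occurred 0.572 times per 10 kb, against 0.308 over all 56562 anchors, and TTCNNNGAA 4.18 times (73 sites) against 3.31. The pooled TTCCNGGAA density leans on the Socs3 anchor, which had 1.75 per 10 kb. The other member anchors with a site had 0.438 (Lifr) to 0.984 (Gbx2), and the rest had 0. Of all anchors, 15.8% held at least 1 TTCCNGGAA, and the member anchors differed in width, from 2.02 kb (wider than 6.03% of anchors) to 45.7 kb (99.7%), so the densities per length are the values to compare. These are descriptions of letters in the reference genome, with no test and no evidence of binding.

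RefSeq's promoter table for GRCm38.p6, which gives 250 bases before and 50 after a start, held 10 promoters for 8 of the 9 symbols; Klf5 had no entry. Among these 10, Socs3's was the only one with TTCNNNGAA, which 8.30% of all 32851 promoters hold, and none held TTCCNGGAA, which 1.15% hold. Its site lay 146 bases before the RefSeq start, on the minus strand, and is shown because it is the only match in these promoters.
Socs3, RefSeq promoter, chr11:117969502-117969530: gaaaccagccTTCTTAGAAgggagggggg

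Library totals were 2767882 to 2944258 counts, and the members' loops took 3238 and 3170 counts in the B6 libraries and 3491 and 3623 in the D2 libraries. That was 0.111 and 0.113% of the B6 totals and 0.126 and 0.123% of the D2 totals. All 7 embryonic stem cell marker genes examined had start-site anchors, and they summed to 4866 and 4894 counts in the B6 libraries against 7056 and 5168 in D2. The markers differed: Nanog had 1443, 1452, 2714 and 1732 counts and Pou5f1 1336, 1339, 1365 and 998 (B6 replicates first). Sox2, Zfp42, Dppa3 and Utf1 had more counts in both D2 libraries, and Tdgf1 overlapped. Of 5 feeder fibroblast markers, Col1a1, Col1a2 and Postn had no anchor and the other 2 summed to 16 to 26 counts per library, while 4 primitive endoderm markers summed to 262 to 310, 3 trophectoderm markers to 522 to 602 (Elf5 had no anchor) and 3 germ layer markers to 123 to 150. The summed stem cell markers were highest in D2 replicate 1, the library marked 10cyc, and the part of this in the results was not tested.

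The contacts of a gene were summed over all loops of its start-site anchors, each loop once, and scaled to the library total as counts-per-million values (CPM). In edgeR's quasi-likelihood fit over 13826 genes, with Benjamini-Hochberg adjusted p-values, 0 of the 7 member genes differed between the strains at an adjusted p under 0.05, where 13.3% of all tested genes did. No member reached an unadjusted p under 0.05 either (25.3% of all tested genes did), and DESeq2 also called 0. Lifr, Jak1 and Socs3 had both D2 libraries above both B6 libraries, as did 34.1% of all tested genes, and no member had both below, as 22.3% did. For each gene the loop with the most counts and the longest with at least 20 counts are described, with its contacts to other genes of the pathway; every other loop named was chosen after its values were seen. In bulk libraries, fewer cells with a contact and fewer contacts per cell cannot be told apart.

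**Figure D1:**
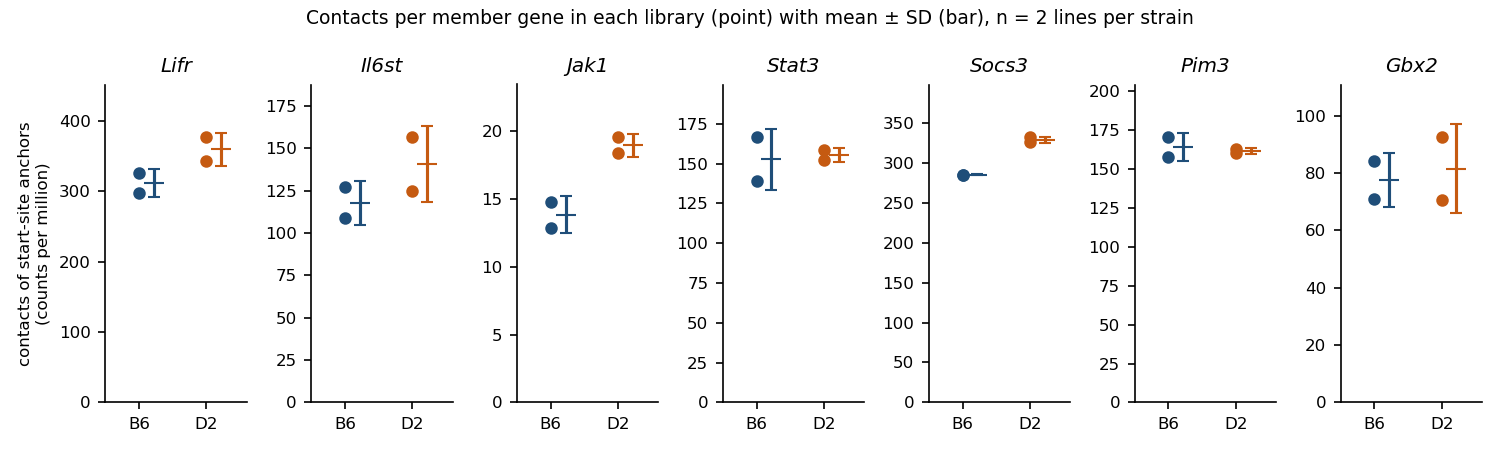
Contacts of each member gene's start-site anchors in CPM, 1 point per library (B6 blue, D2 orange), with the mean and SD of 2 lines per strain as bars. The strains' points do not overlap for Lifr, Jak1 and Socs3, while for Il6st, Stat3, Pim3 and Gbx2 they do.

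Lifr encodes the subunit that binds LIF. The gene lies on the plus strand at chr15:7090614-7197489 and had 2 anchors over its annotated start sites, chr15:7074478-7097828 over the first and chr15:7101935-7147590, 45.7 kb wide and wider than 99.7% of anchors, over 5 internal ones. Both RefSeq promoters of Lifr (chr15:7129322-7129621 and chr15:7140292-7140591) lie in the second anchor. The Lifr total was 297 and 326 CPM in the B6 libraries and 376 and 342 CPM in the D2 libraries, or 311 ± 20.2 against 359 ± 24.1 (SD, n = 2). The D2 libraries were both higher, but the fitted log2 difference of 0.14 (SE 0.12, 95% interval -0.10 to 0.37) gave an adjusted p of 0.522. Fitted differences of gene totals are scaled to the sums of the gene table (4083171 and 3816488 in B6, 4141519 and 4088623 in D2), not to library totals as CPM is, and without TMM factors the Lifr difference was also 0.14.

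The strongest contact of Lifr joined its own 2 anchors, the first reaching upstream of the gene and the second inside it, 38.6 kb apart. It held 214 and 236 counts in B6 and 274 and 273 in D2, 26.1% of all Lifr counts, and 0.183% of anchor pairs at a like distance had more. Its log2 difference was 0.21 (SE 0.22, adjusted p = 0.782). The distance is between midpoints of anchors 23.4 and 45.7 kb wide, where the first ends at 7097828 and the second starts at 7101935. The comparison at a like distance makes no allowance for width, and the median anchor was 4079.5 bp wide. The next strongest ran from the second anchor to the 3′ part of the gene body (chr15:7156348-7172096, 39.5 kb; 105, 97, 118 and 104 counts, B6 replicates first) and upstream to an intergenic anchor 27.2 kb from Osmr (chr15:6902214-6912630, 217 kb; 35, 38, 51 and 40 counts). Of all Lifr counts, 45.8% came from contacts under 50 kb.

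Some Lifr contacts reached far upstream. Its longest loop with at least 20 counts spanned 1090 kb from the internal anchor to an anchor over the non-coding Gm8047 (chr15:6020890-6049142), with 8 and 11 counts in B6 against 14 and 9 in D2 (log2 0.21, SE 0.48). The upstream Lifr anchor touched the same distant anchor over 1051 kb with 2 and 6 counts in B6 and 12 and 10 in D2, a log2 difference of 1.37 (SE 0.59) with an adjusted p of 0.302. A contact 413 kb upstream to the start of Rictor, a subunit of the mTORC2 kinase complex, had 18, 13, 32 and 23 counts (log2 0.76, SE 0.35, adjusted p = 0.356). The internal anchor's contact with an intergenic anchor 53.1 kb upstream (chr15:7069726-7073696) had 15, 13, 29 and 24 counts (log2 0.85, SE 0.36, adjusted p = 0.287), the smallest adjusted p of the gene. In all 3 of these the D2 libraries lay above the B6 libraries and none passed the test over all loops; they are named because their unadjusted p was under 0.05, a choice made after their values were seen.

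Il6st encodes gp130, the signalling subunit shared by the receptors of the interleukin-6 family. Its gene at chr13:112464070-112510086 (plus strand) had 1 anchor, chr13:112456846-112475835, over 8 start sites. The total was 109 and 127 CPM in B6 and 156 and 125 CPM in D2. D2 replicate 1 was the highest and D2 replicate 2 lay within the B6 range, so the strains overlapped, at 118 ± 13.0 and 141 ± 22.5 CPM (SD, n = 2). The log2 difference was 0.18 (SE 0.13, adjusted p = 0.426). Without D2 replicate 2 it was 0.32 with an adjusted p of 0.0470, so the call depended on that library, and the D2 library then left is the one marked 10cyc.

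Contacts of Il6st ran mainly upstream, 62.6% of its counts. The loop with the most counts reached the non-coding 2810403G07Rik at chr13:112408100-112420422, 52.1 kb away, with 42 and 42 counts in B6 against 63 and 33 in D2 (log2 0.13, SE 0.27). A nearer intergenic anchor, chr13:112437012-112444481, 25.6 kb away, was contacted with 37 and 27 counts in B6 and 63 and 50 in D2. Here both D2 libraries were higher, by 0.75 on the log2 scale (SE 0.28), with an adjusted p of 0.167. The same anchor, summed over all its loops, had 156 and 158 counts in B6 and 296 and 217 in D2 and rose by 0.76 (SE 0.17, adjusted p = 0.00220). Those sums include the contact with Il6st, and without D2 replicate 1 the anchor's difference was 0.40 with an adjusted p of 0.193. It was the only higher call among 97 tested anchors within 100 kb of the 9 genes' start sites. Of all tested anchors, 2.67% were called higher.

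The longest Il6st loop with at least 20 counts reached the start of Snx18, a sorting nexin gene, over 1140 kb (chr13:113590057-113622737). It had 3 and 1 counts in B6 and 10 and 7 in D2, the largest log2 difference of any tested member loop at 1.96 (SE 0.73, 95% interval 0.53 to 3.38), and did not pass the test (adjusted p = 0.180). The interval is wide because the counts are low. The loop met the minimum of 20 counts only through its D2 counts, so its rank among tested loops is no support for a difference.

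Jak1 encodes the kinase most closely tied to gp130 and had the sparsest contacts of the 7 genes. Its anchor at chr4:101262819-101267492 was 4.67 kb wide and covered 5 start sites of the gene, which lies on the minus strand at chr4:101152367-101265282. It had 43 and 36 counts in B6 and 54 and 54 in D2, that is 14.8 and 12.9 CPM against 19.5 and 18.3 CPM. The D2 libraries were both higher, 18.9 ± 0.826 against 13.8 ± 1.37 CPM (SD, n = 2), and the log2 difference of 0.38 (SE 0.25, 95% interval -0.12 to 0.89) had an adjusted p of 0.358. Tested among anchors instead of genes, with its own scaling factors, the same counts gave 0.48 with an unadjusted p of 0.0465 and an adjusted p of 0.218.

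Only 2 of the 47 Jak1 loops reached 20 counts. The one with the most, which was also the longest of these, ran 124 kb upstream to an intergenic anchor 17.8 kb from the start of Ak4, an adenylate kinase gene (chr4:101377379-101401520), with 7, 6, 8 and 10 counts. The authors' q-value was under 0.01 for this pair in 0 libraries. The other joined an anchor that holds the start of the microRNA gene Mir101a, 88.3 kb away, with 5, 3, 8 and 4 counts. Over all Jak1 loops, 77.0% of the counts went upstream and 41.2% to intergenic anchors, the highest such share among the 7 genes.

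Stat3 encodes the factor on which the pathway converges. The gene lies on the minus strand at chr11:100885098-100939540, and its main anchor, chr11:100925595-100943262, covered 4 start sites, while a second, 2.02 kb wide (chr11:100904204-100906225), covered 2 internal ones. Its totals were 166 and 139 CPM in B6 and 152 and 158 CPM in D2, and both D2 values fell between the B6 values. The log2 difference was -0.05 (SE 0.13, 95% interval -0.30 to 0.21, adjusted p = 0.868), and it turned to 0.07 without B6 replicate 1.

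Stat3 had the most loops of the 7 genes, 189, and no dominant one. Its most counted loop, to the body of Cavin1, which encodes a coat protein of caveolae (chr11:100956480-100964289, 26.0 kb upstream), had 26, 28, 30 and 27 counts, 6.30% of the gene's counts. Anchors over coding start sites received 62.6% of its counts, the highest share among the 7, which includes the contact between its own 2 anchors (13, 8, 8 and 11 counts), with the anchors over Rab5c (199 kb; 15, 11, 19 and 26 counts) and over Coasy, Hsd17b1, Mlx and Psmc3ip (153 kb; 20, 11, 19 and 23 counts) among the most contacted. Its longest loop with at least 20 counts reached an anchor over Nbr1, Rdm1 and Tmem106a, 670 kb away (chr11:101560244-101648775), with 9, 7, 16 and 11 counts. None of these differences passed the test.

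The Stat3 anchors also touched the start sites of Stat5a and Stat5b, its neighbouring relatives. With the main anchor, Stat5a had 7, 6, 5 and 8 counts at 74.1 kb and Stat5b 5, 5, 5 and 8 counts at 84.6 kb, with log2 differences of -0.07 (SE 0.59) and 0.31 (SE 0.63). Lifr touched Osmr, the oncostatin M receptor gene, from both of its anchors, with 5, 6, 3 and 4 counts at 213 kb and 4, 8, 5 and 5 counts at 251 kb. All of these are a handful of counts, and only large differences could be detected at this depth.

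**Figure D2:**
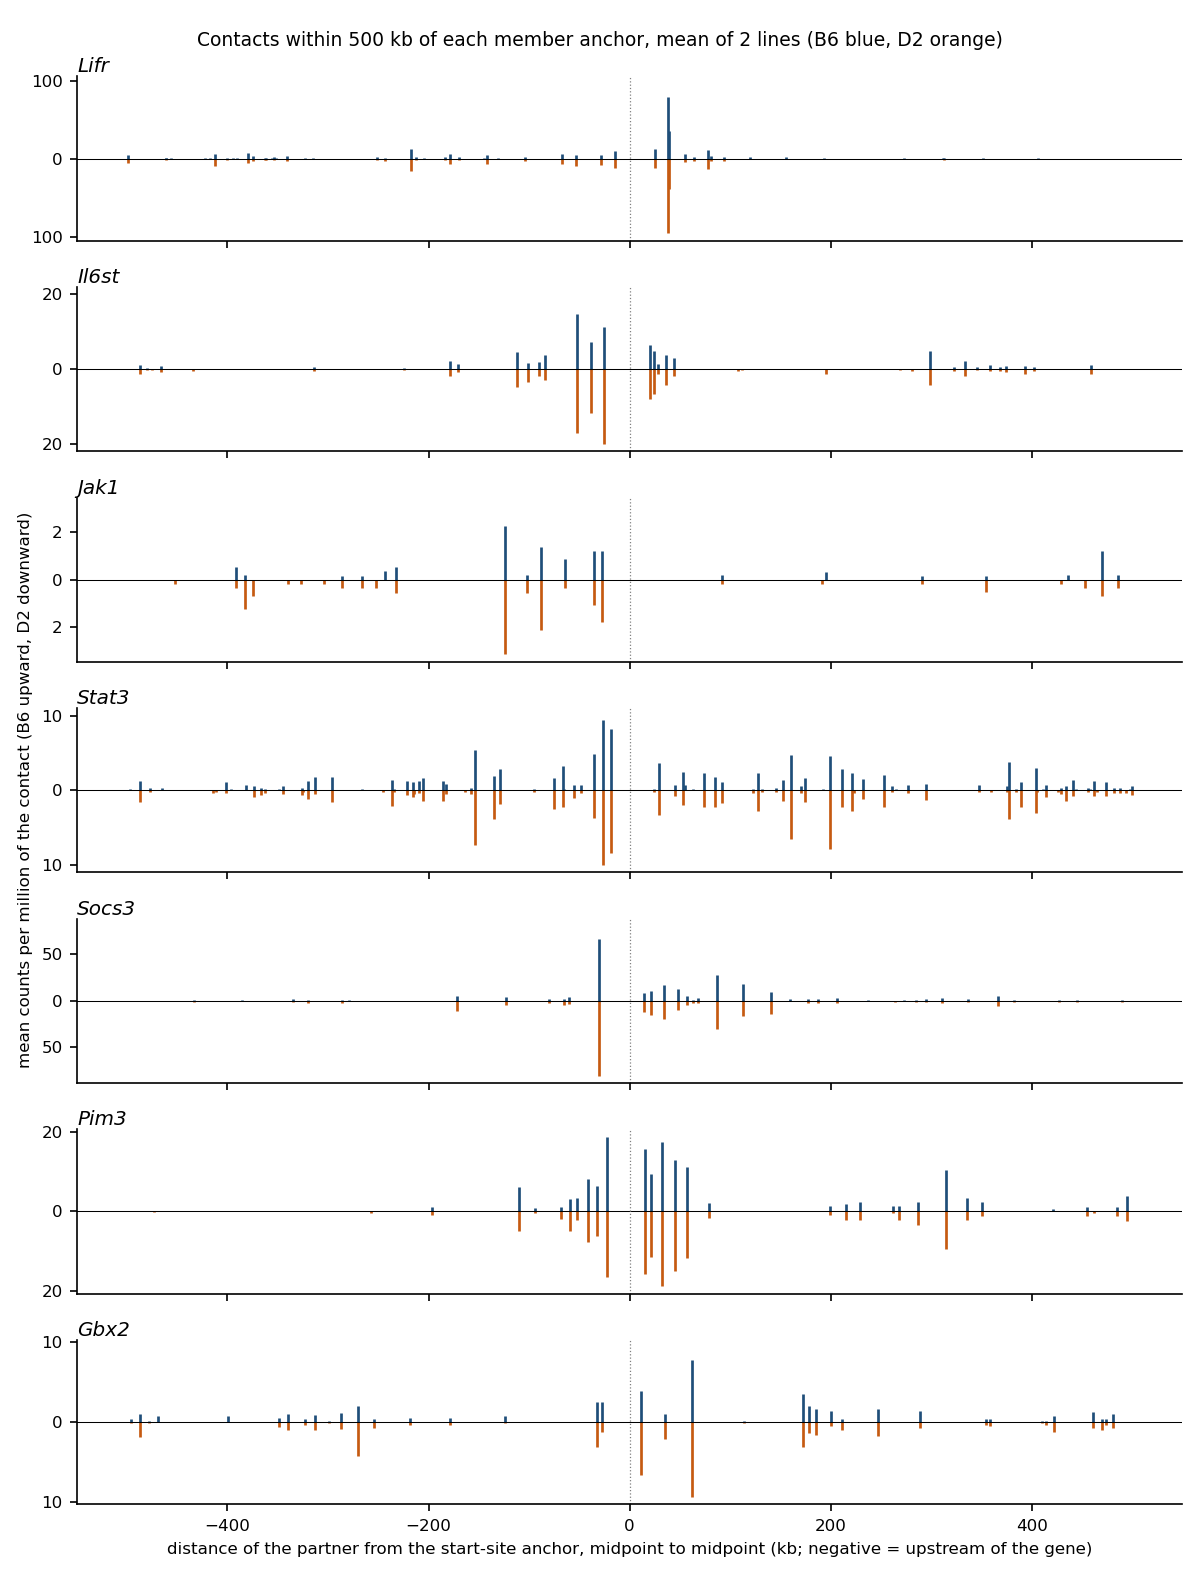
Mean CPM of every contact within 500 kb of the start-site anchors of the 7 genes, B6 upward in blue and D2 downward in orange, against the distance to the partner's midpoint, with negative values upstream of the gene. Lifr and Socs3 each have 1 contact that stands far above the rest, at 38.6 and 30.7 kb between the midpoints of wide anchors. The counts of Stat3 and Gbx2 are spread over many partners.

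Socs3 encodes the inhibitor that STAT3 induces against its own receptor. Its gene at chr11:117966079-117970047 (minus strand) lay whole inside its anchor, chr11:117958255-117981129, which covered 3 start sites. The totals were 285 and 285 CPM in B6 and 326 and 332 CPM in D2. Each strain's libraries lay close together, 285 ± 0.335 and 329 ± 3.95 CPM (SD, n = 2), and the D2 pair was higher, but the fit, which borrows its spread from all genes, gave a log2 difference of 0.14 (SE 0.12, 95% interval -0.10 to 0.37, adjusted p = 0.508). Per kb of anchor Socs3 had 13.4 CPM, more than 91.6% of coding genes with a start-site anchor, and the other 6 members had 3.50 (Jak1) to 8.51 (Pim3).

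A single neighbour took 23.9% of the Socs3 counts. This was the anchor over the start of Pgs1, which encodes a mitochondrial phospholipid enzyme (chr11:117981654-118019144, 30.7 kb upstream), with 209 and 171 counts in B6 against 237 and 222 in D2 (log2 0.21, SE 0.22, adjusted p = 0.796), and 0.159% of pairs at a like distance had more counts. The 30.7 kb is between midpoints: the 22.9 kb Socs3 anchor ends at 117981129 and the 37.5 kb Pgs1 anchor starts at 117981654. The 2 anchors are thus almost adjacent, and the comparison makes no allowance for their width. On the other side Socs3 contacted the anchors over Tha1 (86.9 kb; 83, 79, 95 and 76 counts) and over Birc5 and Tmem235 (113 kb; 46, 56, 62 and 31 counts). Its longest loop with at least 20 counts reached an anchor over Jmjd6, Mettl23, Mfsd11, Mxra7 and Srsf2 at 1126 kb (chr11:116826488-116861110), with 9, 5, 5 and 8 counts.

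The member loop with the smallest p belonged to Socs3. It ran 171 kb upstream into the body of Cyth1, a gene for an ARF activator, at chr11:118133082-118149170, 2448 bp from Dnah17, and was named for its p after the values were seen. B6 gave 13 and 14 counts and D2 gave 32 and 32, or 4.73 ± 0.374 against 11.2 ± 0.490 CPM (SD, n = 2), so the strains did not overlap. An SD of 2 libraries at such counts says little about the spread. The log2 difference was 1.17 (SE 0.35, 95% interval 0.48 to 1.86) with an adjusted p of 0.0574, above the threshold, and it stayed above it under all 10 alternatives that gave one (adjusted p 0.0524 to 0.617; log2 1.09 to 1.25).

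Pim3 encodes a serine/threonine kinase. Its gene at chr15:88862186-88865726 (plus strand) lay in the anchor chr15:88851134-88870273, and its 55 loops, 7 of them single counts, held 170 and 158 CPM in B6 and 160 and 163 CPM in D2. The D2 libraries fell within the B6 range, with a log2 difference of -0.09 (SE 0.12, 95% interval -0.34 to 0.16, adjusted p = 0.714). Most contacts were short, 55.3% of the counts under 50 kb, and the start of Ttll8, a tubulin ligase family gene 56.8 kb downstream, had 35, 29, 29 and 38. The most counted loop was to the non-coding AC117700.1 inside Ttll8 (chr15:88888684-88896347, 31.8 kb), with 58, 42, 56 and 51 counts, and the longest with at least 20 counts to the starts of Ncaph2, Odf3b, Sco2 and Tymp, 514 kb away (chr15:89368012-89380435; 14, 13, 17 and 10 counts).

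Gbx2 encodes a homeobox factor. Its gene at chr1:89927956-89931179 (minus strand) lay in the anchor chr1:89925543-89945857, which also covers the start of the non-coding D130058E05Rik, so contacts of the 2 genes cannot be told apart. The totals were 70.8 and 84.3 CPM in B6 and 70.5 and 92.4 CPM in D2, with the lowest and the highest value both in D2. The log2 difference was 0.01 (SE 0.15, 95% interval -0.30 to 0.31), and its sign changed under 4 of 12 alternatives. Contacts of Gbx2 reached the farthest of the 7 genes, with 39.9% of counts at 500 kb or more and a median distance of 348 kb.

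The most counted Gbx2 loop went to an intron of Agap1, a gene for an ARF GTPase-activating protein, at chr1:89868261-89879300, 61.9 kb away, with 18, 26, 27 and 26 counts. Its longest loop with at least 20 counts went to an intergenic anchor 3529 bp from Mlph at 956 kb (chr1:90871535-90911556), with 2 and 7 counts in B6 against 10 and 7 in D2 (log2 0.83, SE 0.61). Loops to the start of Ackr3, an atypical chemokine receptor gene, 270 kb upstream (4, 7, 11 and 13 counts, log2 1.04, SE 0.54, adjusted p = 0.437) and to a part of Asb18 27.1 kb upstream (8, 6, 5 and 2 counts, log2 -1.04, SE 0.67, adjusted p = 0.584) were the Gbx2 loops past 2-fold, in opposite directions. Neither passed the test.

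Over all members, 133 of the 854 loops had at least 20 counts and were tested; they held 74.2% of the members' counts, and 189 loops had a single count. By edgeR with Benjamini-Hochberg adjustment over 108034 loops, 0 of the 133 were called, where 1.45% of all tested loops were. The unadjusted p was under 0.05 in 6 of them, against 11.7% of all tested loops, all with more counts in D2: 3 of Lifr, 2 of Il6st and 1 of Socs3. The DESeq2 Wald test called 0 as well, with 1 unadjusted p under 0.05. The libraries of the strains did not overlap in 52 of the 133 (39.1%), against 41.7% of all tested loops, with D2 higher in 42 (23.8% of all tested loops) and lower in 10 (17.9%).

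**Figure D3:**
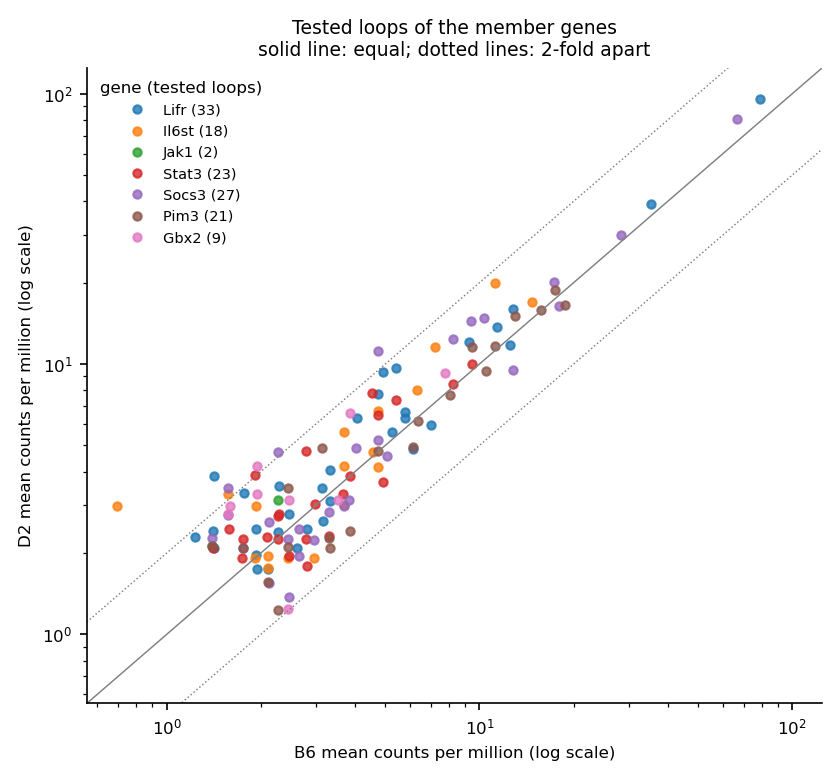
Mean CPM of the 133 tested member loops in B6 (x) and D2 (y), both on log scales, coloured by gene with the number of tested loops; the solid line marks equal values and the dotted lines a 2-fold difference. Most loops lie between the dotted lines, and the point far to the left is the Il6st contact with Snx18, with 3 and 1 counts in B6.

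The size of the members' differences was like that of other loops. The median log2 difference was 0.08 against 0.02 over all tested loops, 77 were above 0 and 56 below (51.1% of all tested loops were above), and 6 were past 2-fold. The median size regardless of sign was 0.32, against 0.38 over all tested loops. The median standard error of a single tested loop was 0.51. By gene, the loops above 0 were 23 of 33 for Lifr, 10 of 18 for Il6st, 13 of 23 for Stat3, 15 of 27 for Socs3, 7 of 21 for Pim3 and 7 of 9 for Gbx2.

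The authors' q-value for a pair in a single library gives another view, since it was computed in each library on its own. It was under 0.01 in at least 1 library for 430 of the 854 loops and in all 4 libraries for 108, of which 64 also had at least 4 counts in every library. Those found in all 4 were 28 of Lifr's 167 loops, 13 of 109 for Il6st, 16 of 189 for Stat3, 21 of 178 for Socs3, 18 of 55 for Pim3 and 12 of 109 for Gbx2, and 0 of 47 for Jak1. The share over all anchor pairs was not computed, so whether these counts are high or low cannot be told.

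The anchors at the other end of the tested loops were examined too, by the sum of all contacts each of them made. Of 119 such anchors, 6 were called by edgeR and all 6 rose in D2 (5.04%, against 9.75% of all tested anchors called in either direction and 2.67% called higher); of the 9 member anchors 0 were called. Besides the anchor near Il6st, they were the Gm8047 anchor of Lifr, with 257 and 248 counts in B6 against 655 and 425 in D2 (log2 1.15, SE 0.19), and the Rictor anchor of Lifr (208, 183, 303 and 235 counts; log2 0.51, SE 0.17). Gbx2 touched 2, the one near Mlph (359, 343, 674 and 581 counts; log2 0.88, SE 0.17) and one over the non-coding Gm35048 (504, 503, 828 and 724 counts; log2 0.67, SE 0.17), and Pim3 touched 1, over Dennd6b (111, 74, 142 and 124 counts; log2 0.56, SE 0.19).

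The Pim3 contact with the Dennd6b anchor had 10 and 9 counts in B6 and 5 and 7 in D2, a log2 difference of -0.72 (SE 0.56, adjusted p = 0.683), the sign opposite to that of the anchor. The number of these calls rests on single libraries: leaving out 1 library left 3 (without B6 replicate 2 or without D2 replicate 1), 4 (without B6 replicate 1) or 20 (without D2 replicate 2). The Mlph anchor was called in all 11 alternatives run for it, and the Gm8047 anchor in 10, the exception being the DESeq2 Wald test (adjusted p = 0.122). The Rictor and Dennd6b anchors were called in 4 of 11 each.

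The 2 genes without an anchor were described by the anchors around them. For Pim1, which encodes a kinase and lies on chromosome 17, the nearest anchor was 19.2 kb from a start site, over the start of Gm17657 (chr17:29512654-29521604), with 310 and 287 counts in B6 against 215 and 298 in D2 (log2 -0.19, SE 0.16, adjusted p = 0.532). Within 100 kb of its start sites all 11 tested anchors had log2 differences below 0 (median -0.19), where 50.6% of all tested anchors were above 0. Of the 11, 0 were called, against 9.75% of all tested anchors. The summed anchor CPM in this window was 441 and 430 in B6 and 317 and 423 in D2, so the low sum was that of D2 replicate 1 and D2 replicate 2 was close to B6. Neighbouring anchors share loops, so the 11 values are not independent of each other.

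Klf5 encodes a Krüppel-like factor, and counts were lower in D2 at most tested anchors within 100 kb of the gene. Its nearest anchor, chr14:99284946-99288691, ended 10.0 kb before the first start site and had 36 and 54 counts in B6 and 16 and 23 in D2, 15.8 ± 4.88 against 6.80 ± 1.44 CPM (SD, n = 2). It fell by 1.17 on the log2 scale (SE 0.30, adjusted p = 0.00625). Downstream, the first anchor after the gene, chr14:99372609-99377084, 73.5 kb from a start site, had 81 and 79 counts in B6 and 32 and 40 in D2, and fell by 1.12 (SE 0.22, adjusted p = 0.000332). At each of these anchors both D2 libraries lay below both B6 libraries. Whether the lower counts meant fewer contacts or less enrichment was not tested.

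Of the 11 tested anchors within 100 kb of Klf5, 6 were called lower and 0 higher, where 7.08% of all tested anchors were called lower, and 10 of the 11 had log2 differences below 0 (median -0.69; 50.6% of all tested anchors were above 0). The widest, an intergenic anchor of 29.1 kb that ends 14.3 kb upstream of the start (chr14:99255273-99284371), had 310, 318, 221 and 235 counts and a difference of -0.43 that did not pass (SE 0.16, adjusted p = 0.079). The summed anchor CPM was 343 and 398 in B6 and 228.7 and 267.3 in D2. Within 100 kb, no other member's surroundings held a lower call. The window was chosen after the values were seen, and neighbouring anchors share loops, so these calls are not independent of each other.

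**Figure D4:**
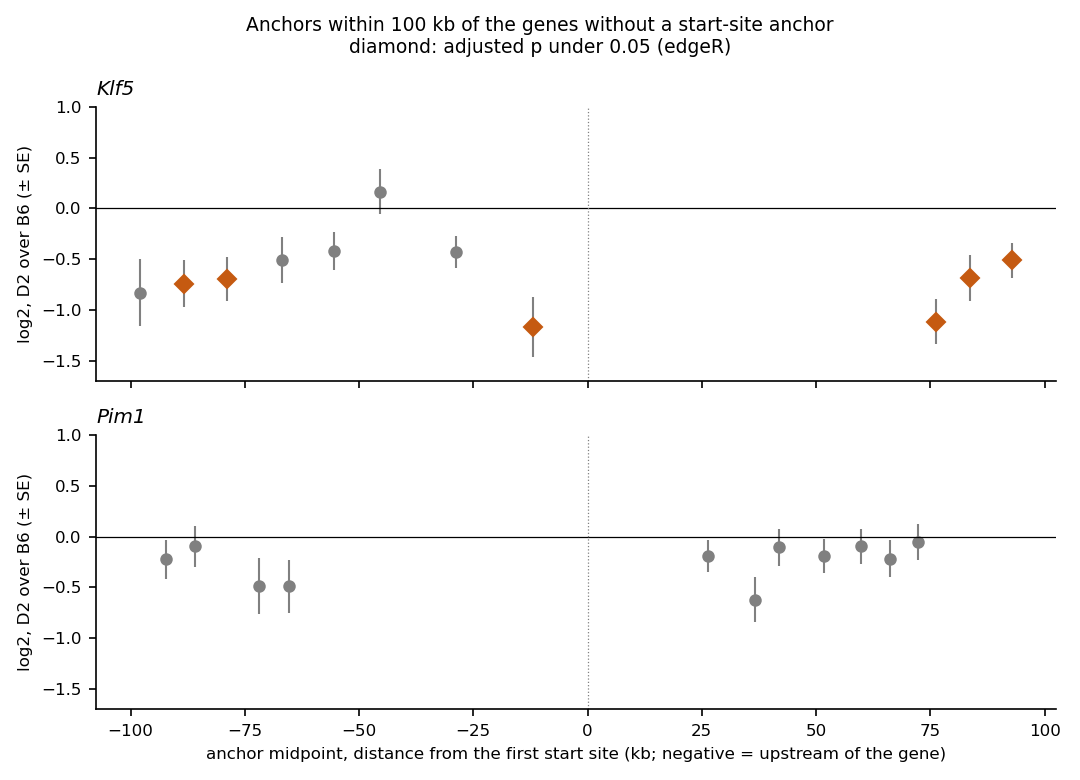
Log2 difference, D2 over B6, with its standard error, of every tested anchor within 100 kb of Klf5 (top) and Pim1 (bottom), against the distance of its midpoint from the gene's first start site, negative upstream. Diamonds mark the 6 anchors called lower by edgeR, all around Klf5, the lowest of them at -1.17 and -1.12, the nearest anchors upstream and downstream of the first start site (gaps of 10.0 and 73.5 kb).

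Counts of loops between anchors of the Klf5 surroundings were lower in D2 as well. Loops with both ends inside the window held 280 and 291 counts in B6 and 147 and 192 in D2, and all 15 tested ones had differences below 0 (median -1.05). Of these, 1 was called, between chr14:99380164-99384525 and chr14:99385806-99397321 downstream, with 23 and 20 counts in B6 and 9 and 6 in D2, which fell by 1.57 (SE 0.44, adjusted p = 0.0291); it stayed called under 3 of the 10 alternatives that gave an adjusted p and under none that left out a library. The lower values went on beyond the window on the upstream side: between 100 and 500 kb, 5 of 15 tested anchors on that side were called lower (median -0.82) and 1 of 15 on the other (median -0.22), where 7.08% of all tested anchors were. Lower calls at this range were also made below Pim1 (4 of 20, median -0.30) and above Il6st (2 of 14, median -0.10).

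The number of calls around Klf5 depends on the test and on single libraries. It was 1 without B6 replicate 2, 1 without D2 replicate 1, 5 without B6 replicate 1, 5 without D2 replicate 2, and 1 with no count minimum. The DESeq2 Wald test called 0, with 5 unadjusted p under 0.05. The downstream anchor at 73.5 kb was the exception: it was called in 10 of 11 alternatives and had an adjusted p of 0.0557 by the DESeq2 Wald test. The direction was lower in D2 in all 11 for each of the 6 anchors.

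The rest of the pathway was read from the same gene totals for 48 further genes, of which 43 had a start-site anchor; Il11, Cntfr, Pias2, Mcl1 and Tfcp2l1 had none. By edgeR with adjustment over all 13826 genes 1 of the 43 was called, against 13.3% of all tested genes (3.49% called higher), and it was Myc, the oncogenic transcription factor and a known STAT3 target. Myc had 328 and 419 counts in B6 and 537 and 554 in D2, and rose by 0.47 on the log2 scale (SE 0.13, adjusted p = 0.0116). Both D2 libraries lay above both B6 libraries. Without B6 replicate 1 its difference was 0.27 with an adjusted p of 0.528, and the DESeq2 Wald test gave 0.0771.

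By role, 0 of 6 ligands, 0 of 3 further receptors, 0 of 3 kinases, 0 of 6 transcription factors, 0 of 13 inhibitors and 0 of 5 adaptors and phosphatases were called, and 1 of 7 further targets. The median log2 difference over the 43 was 0.04, against 0.01 over all tested genes, with 27 above 0 and 16 below, and 10 had an unadjusted p under 0.05, 5 in each direction; of all tested genes, 51.1% were above 0 and 25.3% had such a p. Lif itself, the ligand's own gene, had 856 and 860 counts in B6 against 847 and 991 in D2 (log2 0.03, SE 0.12). Among the kinases Jak2 had 136, 145, 184 and 201 counts (log2 0.38, adjusted p = 0.100) and Jak3 473, 430, 365 and 404 (log2 -0.30, adjusted p = 0.107), opposite in direction and both short of the threshold; they are named after their values were seen. Leaving out D2 replicate 2 gave 8 calls and leaving out B6 replicate 1 gave 0.

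**Figure D5:**
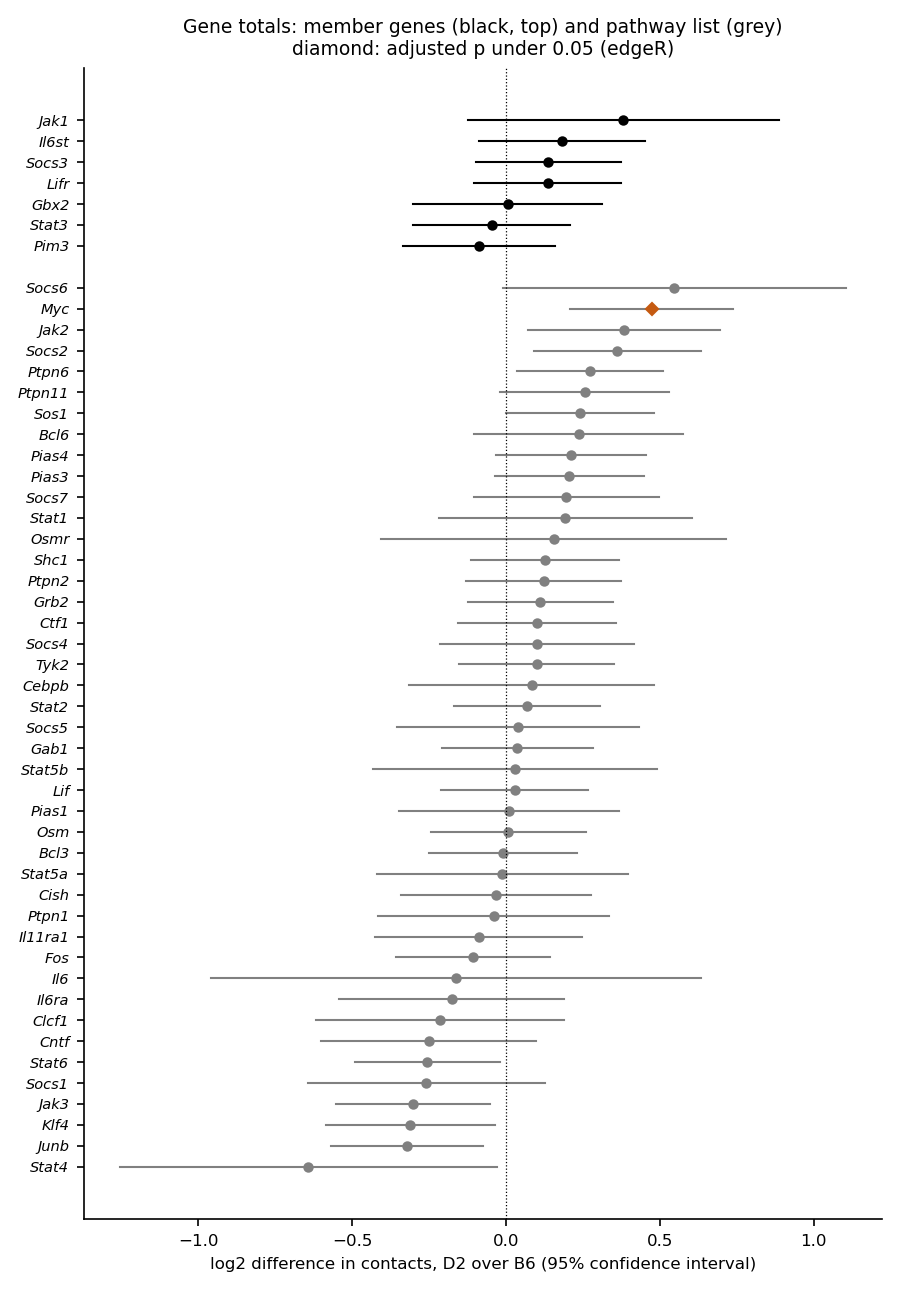
Log2 difference in contacts, D2 over B6, with its 95% confidence interval for the 7 member genes (black) and 43 other genes of the pathway (grey), from the same edgeR fit over 13826 genes. Every member's interval crosses 0, and Myc, marked by a diamond at 0.47, is the only gene with an adjusted p under 0.05.

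The reach of the members' contacts did not separate the strains. The median distance of a count was 86.9 and 103.6 kb in the B6 libraries and 78.1 and 92.4 kb in the D2 libraries, 95.3 ± 11.8 against 85.2 ± 10.1 kb (SD, n = 2), and the libraries overlapped. With 2 libraries a strain, the smallest p an exact permutation could reach is 0.33, so none is given. The difference of -10.04 kb is near that of the whole table, -12.4 kb, where the strains did not overlap. Pim3 had the shortest contacts, with a median of 45.2 kb, followed by Lifr (63.7 kb), Il6st (84.1 kb), Socs3 (86.9 kb), Jak1 (124 kb), Stat3 (212 kb) and Gbx2 (348 kb). For Il6st the libraries' medians ran from 52.1 to 112 kb and for Jak1 from 124 to 291 kb, so Il6st overlapped both Lifr and Socs3, and Jak1 overlapped Stat3. Gbx2, at 299 to 461 kb, lay above every Stat3 library, and Pim3, at 41.0 to 45.2 kb, below every Lifr library.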

How the data were processed

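The authors deposited 1 table of anchor pairs with a whole-number count of ligated read pairs, a p-value and a q-value for each of the 4 libraries, per the file headers. HiC-Pro 2.11.4, DESeq2 and the mm10 build are named in the submitters' processing notes, with no role given; the loop caller's settings and the handling of DBA/2J sequence in alignment are not given in the sources used here. Distance is between anchor midpoints.

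Anchors were matched to GENCODE M21 start sites. Counts were summed per anchor and per coding gene, each loop once, and divided by library totals for CPM. Loops, anchors and genes with at least 20 counts over the 4 libraries were each fitted as whole tables with edgeR 4.0.16. The fit used quasi-likelihood, TMM factors, 2 libraries per strain and Benjamini-Hochberg adjustment (R 4.3.3). It was also run on simulated data drawn from its own fitted spread, which cannot show whether that spread suits these lines. DESeq2 1.42.0 was an alternative. The edgeR p-values weigh each difference against a spread estimated largely from all features of its table, with only 2 lines per strain. Counts carry no molecular identifiers, so counting precision may be overstated. Same-numbered libraries of the strains did not deviate together (correlations -0.00, 0.00 and 0.03 for loops, anchors and genes).

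The loops named for each gene were the one with the most counts and the longest with at least 20 counts, plus any called and those shared with a listed pathway gene; all further ones were chosen after their values were seen. The members and lists were chosen with earlier results of these data known. Alternatives were other scalings, count minimums, DESeq2, a replicate block, each library left out, and other start-site sets; those for the Klf5 surroundings and the partner anchors were added after seeing the data.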

Additional observations from a re-analysis of the deposited data

How the results depend on the processing

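The absence of called member loops held under all 12 alternatives. By edgeR with totals within each chromosome, Jak1's gene total had a log2 difference of 0.58, against 0.38 in the main fit. Its unadjusted p was then 0.029 and its adjusted p 0.130. Member loops with an unadjusted p under 0.05 numbered 12 under that scaling, against 6 in the main fit. Without D2 replicate 2, 2 start-site anchors (of Lifr and Il6st) and 1 gene total (Il6st) were called; the ranges over left-out libraries were 0 to 2 and 0 to 1. Over left-out libraries the Stat3 difference ran from -0.16 to 0.074 and that of Gbx2 from -0.22 to 0.20; Stat3 turned without B6 replicate 1, and Gbx2 turned without it (-0.13) and without D2 replicate 2. Gbx2 was -0.0029 with the replicate block and -0.0010 with basic start sites only. Calls on the pathway list numbered 3 with library totals or within-chromosome totals, 0 by DESeq2, and 0 to 8 over left-out libraries. Partner anchors numbered 10 with library totals or within-chromosome totals, 2 by DESeq2, 2 with no count minimum, and 3 to 20 over left-out libraries. Around Klf5 there were 0 by DESeq2, 1 with no count minimum, 1 in a window of 50 kb and 1 to 5 over left-out libraries. DESeq2 gave no adjusted p for the Cyth1, Snx18 and Klf5-side loops. Requiring 4 counts in each library left 64 of the 108 loops with a low q-value in all 4. The cause of these changes was not tested.

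The labels give both strains replicates 1 and 2, but the numbers do not pair the lines. With the replicate block there were 2 calls on the pathway list, 10 partner anchors and 6 anchors around Klf5. With a median standard error of 0.51 per tested loop, small differences in single loops are below what this depth can show.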
